A study of Mus musculus with 18 samples.

Results

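The genes described here are 46 transcripts of macrophages and of the wider myeloid and blood-borne lineage, taken by gene symbol from the 27179 genes measured in cultures of mouse mesenchymal stem cells (MSCs). All 46 symbols were found. Of these, 41 averaged 10 or more normalized counts over the 18 libraries and were tested among 14353 genes, and 5 (H2-Aa, Ccr2, Cd163, Clec7a and Cx3cr1) lay under that mean. MSCs are the plastic-adherent stromal cells of bone marrow, here from male C57BL6 mice aged 6 weeks (young) or 18 to 24 months (old) and used at passage 2 to 5. The labels give a medium with 20% serum, and the study's methods name another medium with less serum for the expansion of the cells. Young MSCs and old MSCs were grown alone, untreated, and rejuvenated old MSCs were old MSCs that shared a well with young MSCs on the other side of a Transwell membrane with 0.4 µm pores. Each culture lasted 7 days, with 100000 old MSCs per well, and RNA-seq was made from 6 libraries of each group. An old-with-old co-culture was not analysed here, so the age of the partner cells and the presence of a partner cannot be told apart. The labels call the libraries biological replicates without naming animals or pools, so p-values measure the spread between these libraries.

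Macrophages of plated marrow adhere to plastic, as stromal cells do. They depend on signalling through the CSF1 receptor and on the transcription factor PU.1. They engulf antibody-coated and dying material through Fc, scavenger and lipid receptors, some of which signal through small adaptors with ITAM motifs. Within marrow, resident macrophages also support blood formation and clear the nuclei expelled by erythroblasts. In RNA from whole cultures, fewer cells of a type and less RNA per cell cannot be told apart.

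The libraries held 22936251 to 29559194 reads on genes. The deposited value is the number of reads of a gene divided by 1 size factor per library, called a normalized count below. On chromosomes 1, 7, 12 and 16 most genes were displaced together between young and old MSCs, and 8 of the 41 members tested lie there. The other 33 had a median log2 fold change of -5.80 in young against old MSCs, close to the -5.88 of all 41. Rejuvenated old replicate 1 stood apart in Cd34, a gene high in young MSCs, with 402 normalized counts where the other 5 had 24.2 to 41.9, old MSCs 19.4 to 28.01 and young MSCs 6787 to 7191. Without that library the members called between rejuvenated old and old MSCs numbered 2, as with it.

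Myeloid transcripts were abundant in old and rejuvenated old MSCs and sparse in young MSCs. The sum over the 41 members was 1490.4 ± 43.7 (SD, n = 6) normalized counts in young MSCs, 26385 ± 1668 (SD, n = 6) in old MSCs and 25555 ± 1969 (SD, n = 6) in rejuvenated old MSCs. It was 17.7 times higher in old than in young MSCs, and rejuvenated old MSCs had 0.969 of the old level. The highest young library had 1538 and the lowest of the other groups 23627, so young MSCs did not overlap the others, whereas old and rejuvenated old MSCs did. These transcripts took 0.00585% of the normalized counts of a library in young MSCs, 0.0983% in old MSCs and 0.0941% in rejuvenated old MSCs. Lyz2 alone made up 38.5% of the sum in old MSCs, and without it the old level was 12.3 times the young level.

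**Figure D1:**
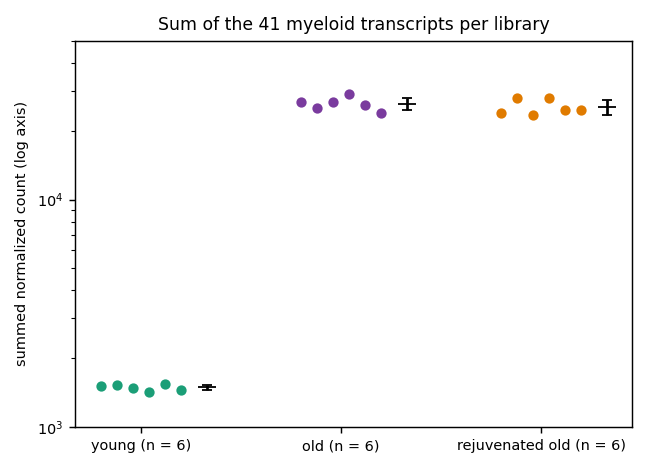
Summed normalized counts of the 41 members in each library (log axis), by group, with the mean and SD of 6 libraries as the black bar. Young libraries lie at 1429 to 1538, old at 24135 to 29040 and rejuvenated old at 23627 to 28030.

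Of the 41 members tested, 40 were lower and 1 was higher in young than in old MSCs (limma, adjusted p under 0.05), with a median log2 fold change of -5.88. Among all genes tested in this comparison 85.7% were called, 44.1% lower and 41.6% higher in young MSCs, and the median was -0.02. All 6 young libraries lay below all 6 old libraries in 38 members, as they did in 38.2% of all genes, and above them in 0 members against 35.7% of all genes (73.9% without overlap in either direction). Only 13 of the 41 members had a young mean of at least 10, so most passed the filter through the old and rejuvenated old libraries, and the counts and median are a description. Young MSCs had under 1% of the old level in 19 members, 1 to 10% in 11 and more in 11, with a median of 1.17%. For 4 members (Adgre1, Ptprc, Lcp2 and Ncf4) the 6 young libraries held 0 reads in all, and 15 members had at most 3 reads over the 6 young libraries.

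**Figure D2:**
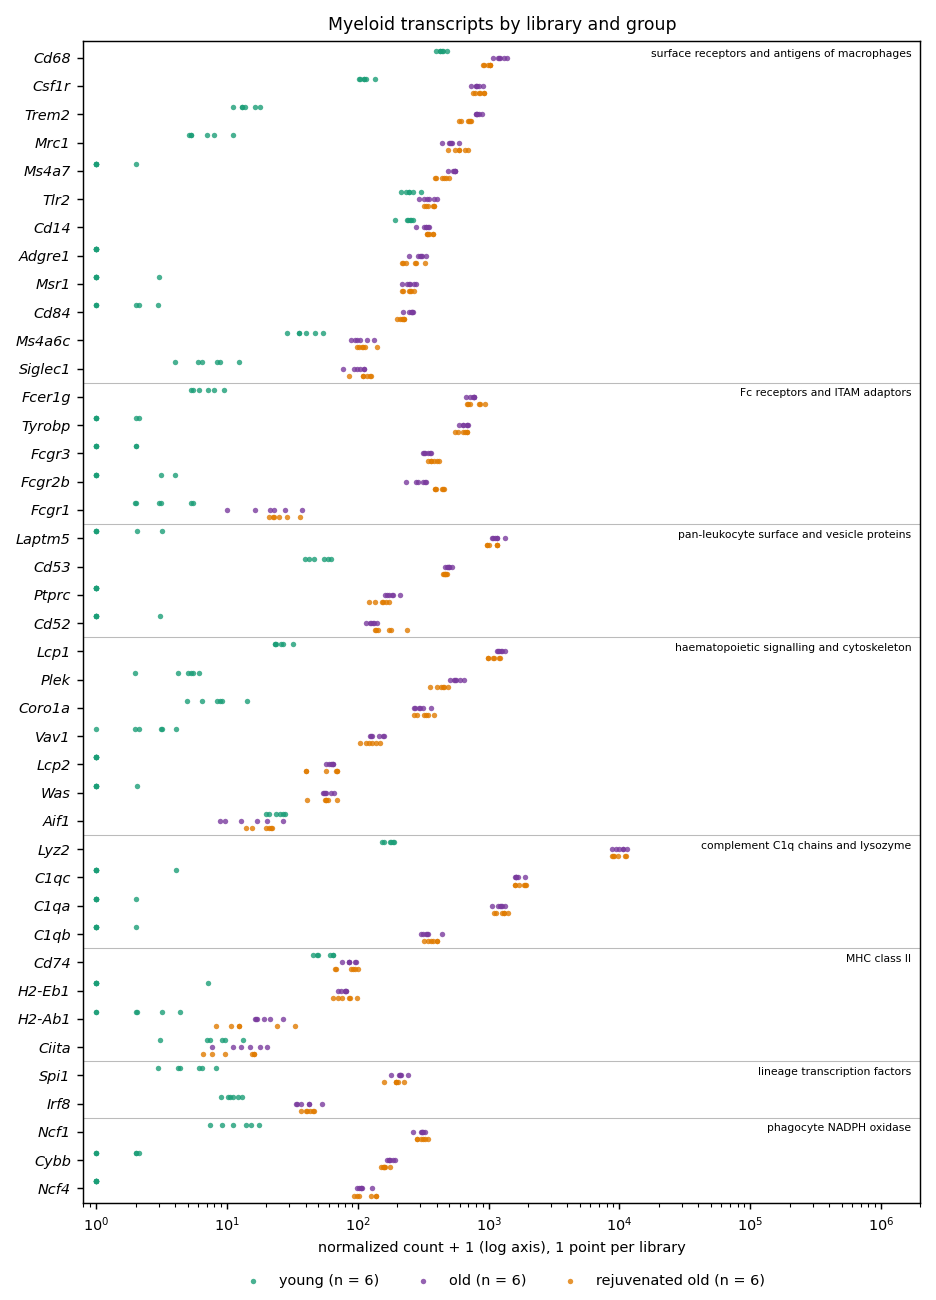
Normalized count plus 1 (log axis) of each of the 41 members in each library, grouped by role, with 1 point per library. For most members the young libraries lie far to the left, many at or near 0, while old and rejuvenated old libraries lie together, except for Tlr2, Cd14, Cd74, Ciita and Aif1, where young libraries lie within or close to the old range.

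Promoter sequence is shown for 5 members whose promoter holds the letters GAGGAA, the core of the sites that PU.1 binds. PU.1 (Spi1) is itself among the members. The 5 are the most abundant such members apart from Csf1r, Cd14 and Cd74, whose promoters were not searched. Of the 46 members, 33 were found in the RefSeq promoters of GRCm38.p6. Without Csf1r, Cd14 and Cd74, 40 start sites of members were searched. The 250 bases before the start held GAGGAA, on either strand, in 16 of these 40 windows (40%), from 14 genes. The share was 23.3% of all 32851 windows, which were counted without that exclusion. A match is a description of the letters and not a binding site. The stretches of 80 bases below are written along the strand of the gene, with the match in capitals, as GAGGAA or, from the other strand, TTCCTC.
C1qc, chr4:136893065-136893144, minus strand: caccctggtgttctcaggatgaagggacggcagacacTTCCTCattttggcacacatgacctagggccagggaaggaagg
Cd68, chr11:69666341-69666420, minus strand: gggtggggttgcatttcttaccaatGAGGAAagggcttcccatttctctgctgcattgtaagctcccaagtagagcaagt
Laptm5, chr4:130913236-130913315, plus strand: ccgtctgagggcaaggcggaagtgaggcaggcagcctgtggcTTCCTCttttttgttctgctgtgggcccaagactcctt
Trem2, chr17:48346321-48346400, plus strand: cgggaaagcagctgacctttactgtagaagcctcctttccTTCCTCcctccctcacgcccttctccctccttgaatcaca
Mrc1, chr2:14229334-14229413, plus strand: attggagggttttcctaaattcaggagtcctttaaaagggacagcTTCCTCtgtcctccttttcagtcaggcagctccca
The match begins 193 bases before the start in C1qc, 225 in Cd68, 38 in Laptm5, 40 in Trem2 and 35 in Mrc1, whose window holds 3 matches. The start is that of the RefSeq promoter table, which for Laptm5 and C1qc is the start of a transcript inside the span given for the gene below.

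The transcription factors of the lineage differed in how completely they were missing from young MSCs. Spi1 (gene number 20375, chromosome 2 from 91082374 to 91115759), which encodes PU.1, had 1.99 to 7.21 (median 4.21) normalized counts in young MSCs, 178 to 241 (median 209) in old MSCs and 158 to 225 (median 196) in rejuvenated old MSCs. Every young library lay far below every other library (log2 fold change -5.36, standard error 0.18, adjusted p = 3.77e-18, young against old MSCs). Irf8 encodes an interferon regulatory factor that directs monocyte and dendritic cell development. It had 7.97 to 11.97 (median 9.86) normalized counts in young MSCs, 32.5 to 51.8 (median 38.3) in old MSCs and 35.8 to 45.3 (median 40.8) in rejuvenated old MSCs. The groups of old cells again lay above the young one, but the difference was smaller (log2 fold change -1.86, standard error 0.15, adjusted p = 4.96e-11).

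Among surface receptors and antigens of macrophages, all 12 members tested were lower in young than in old MSCs, from Cd14 at -0.44 to Ms4a7 at -8.90 on the log2 scale. Cd68 (gene number 12514, chromosome 11 from 69664213 to 69666170) encodes a glycoprotein of late endosomes that is high in macrophages. It had 395 to 479.6 (median 434) normalized counts in young MSCs, 1073 to 1391 (median 1209) in old MSCs and 912 to 1025 (median 1007) in rejuvenated old MSCs. The 3 groups did not overlap, with rejuvenated old MSCs in between (log2 fold change -1.49, standard error 0.06, adjusted p = 5.35e-17, young against old MSCs). Csf1r (gene number 12978, chromosome 18 from 61105572 to 61131139), the receptor for CSF1 and IL-34, had 101 to 134 (median 111) normalized counts in young MSCs, 734 to 899 (median 807) in old MSCs and 752 to 928 (median 849) in rejuvenated old MSCs. Old and rejuvenated old MSCs overlapped, and young MSCs lay below both (log2 fold change -2.85, standard error 0.07, adjusted p = 9.35e-21). Trem2 (gene number 83433, chromosome 17 from 48346401 to 48352276) encodes a lipid-sensing receptor that signals through the adaptor made by Tyrobp. It had 10.1 to 16.8 (median 12.4) normalized counts in young MSCs, 798 to 883 (median 816) in old MSCs and 596 to 733 (median 703) in rejuvenated old MSCs. As with Cd68, the rejuvenated old libraries lay between the other groups, but close to the old one (log2 fold change -5.88, standard error 0.09, adjusted p = 3.89e-24). 

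Several receptors carried by macrophages were absent or nearly so from young MSCs. Adgre1 (gene number 13733, chromosome 17 from 57358581 to 57483529), which encodes the F4/80 antigen of mouse macrophages, had 0 normalized counts in every young library, 243 to 333 (median 299.7) in old and 218 to 325 (median 251) in rejuvenated old MSCs. Taking 3 reads over the young group as the floor, its level in old MSCs was at least 563-fold higher. Ms4a7, a membrane-spanning protein of macrophages, had 1 read over the 6 young libraries and 488 to 555 normalized counts in each old library. Msr1, the class A scavenger receptor, had 2 reads in young MSCs and 217 to 279 normalized counts in old MSCs. Cd84, a self-binding receptor of the SLAM family, had 4 reads in young MSCs, and old MSCs were 363-fold (142 to 1332) higher, the range being the exact Poisson 95% interval for counting error only. Mrc1, the mannose receptor, was not absent, with 4.12 to 10.1 in young against 436 to 589 in old MSCs (log2 fold change -6.25, standard error 0.15, adjusted p = 8.09e-21). Siglec1, the sialic acid receptor CD169 of resident macrophages, had 3.04 to 11.3 in young and 76.3 to 111 in old MSCs.

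Tlr2 and Cd14 behaved differently from the other receptors. Tlr2, a sensor of bacterial lipoproteins, had 211 to 305 (median 245) normalized counts in young MSCs, 293 to 403 (median 342) in old MSCs and 320.3 to 384 (median 359) in rejuvenated old MSCs, so that the young and old libraries overlapped (log2 fold change -0.47, standard error 0.08, adjusted p = 2.19e-05). Cd14, which presents lipopolysaccharide to TLR4, had 192 to 264 (median 246) normalized counts in young MSCs, 279 to 350.1 (median 334) in old MSCs and 336 to 376 (median 347) in rejuvenated old MSCs. Its young libraries all lay below the old ones, by a small margin (log2 fold change -0.44, standard error 0.07, adjusted p = 5.98e-06). Both genes are known to be expressed by fibroblasts and other stromal cells as well as by myeloid cells. Ms4a6c was also detected in all young libraries, at 27.8 to 52.8, against 87.3 to 131 in old MSCs.

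Fc receptors and their adaptors had some of the widest differences. Fcer1g (gene number 14127, chromosome 1 from 171229572 to 171234349), the common gamma chain of activating Fc receptors, had 4.35 to 8.53 (median 5.62) normalized counts in young MSCs, 674 to 769 (median 760.1) in old MSCs and 688 to 943 (median 781) in rejuvenated old MSCs. The young libraries stood apart from both other groups (log2 fold change -6.77, standard error 0.12, adjusted p = 3.36e-23). Tyrobp (gene number 22177, chromosome 7 from 30413782 to 30417582), the adaptor DAP12 that carries an ITAM motif, had 0 to 1.12 (median 0) normalized counts in young MSCs, 595 to 698 (median 659) in old MSCs and 556 to 684 (median 647) in rejuvenated old MSCs. Only 2 reads were counted over the 6 young libraries (adjusted p = 1.22e-22, young against old MSCs), and old MSCs were 1829.6-fold (506 to 15108) higher. Fcgr3, the low-affinity activating receptor for IgG, had 0 to 1.03 (median 0) normalized counts in young MSCs, 316 to 362 (median 335) in old MSCs and 343 to 413 (median 373) in rejuvenated old MSCs. Its level in old MSCs was 989.8-fold (274 to 8173) that of young MSCs. Fcgr2b, the inhibitory receptor for IgG, had 5 reads in young MSCs and 232 to 329.6 normalized counts in old MSCs. Fcgr1, the high-affinity receptor, was scarce in every group, at 0.996 to 4.47 in young MSCs, 9.03 to 36.4 in old MSCs and 19.8 to 35.2 in rejuvenated old MSCs. Fcgr2b and Fcgr3 resemble each other closely in their extracellular parts, and how the counting treated reads shared by them is not given in the sources used here.

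The 4 pan-leukocyte members were all called lower in young MSCs. Laptm5 (gene number 16792, chromosome 4 from 130912890 to 130936148), a lysosomal membrane protein of blood cells, had 0 to 2.18 (median 0) normalized counts in young MSCs, 1060.1 to 1327 (median 1141) in old MSCs and 966 to 1169 (median 1081) in rejuvenated old MSCs. The 6 young libraries held 3 reads in all, and old MSCs were 2133-fold (730.01 to 10345) higher. Cd53, a tetraspanin of leukocytes, had 38.5 to 61.5 (median 49.8) normalized counts in young MSCs, 464 to 525 (median 491) in old MSCs and 449.98 to 483 (median 465) in rejuvenated old MSCs. Reads were present in each young library, and these lay below all others (log2 fold change -3.30, standard error 0.09, adjusted p = 1.04e-19). Ptprc (gene number 19264, chromosome 1 from 138062859 to 138175756), which encodes CD45, a surface protein of nearly all nucleated blood cells, had 0 normalized counts in every young library, 162 to 208 (median 177) in old and 122 to 171 (median 154) in rejuvenated old MSCs. The level in old MSCs was at least 340.4-fold higher than the floor of 3 reads over the young group. By flow cytometry the paper reports young and old MSCs as negative for CD45 and CD34, a measure of surface protein and not of RNA. Cd52, a small glycoprotein, had 2 reads over the young libraries and 115 to 140.0 normalized counts in old MSCs. 

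Signalling and cytoskeletal members were lower in young than in old MSCs with 1 exception. Lcp1 (gene number 18826, chromosome 14 from 75131105 to 75230842), the actin-bundling L-plastin, had 22.3 to 30.9 (median 23.8) normalized counts in young MSCs, 1164 to 1327 (median 1227) in old MSCs and 983 to 1217 (median 1084) in rejuvenated old MSCs. Young libraries lay below all others, and some rejuvenated old libraries lay below the old range (log2 fold change -5.58, standard error 0.08, adjusted p = 2.70e-25, young against old MSCs). Plek, or pleckstrin, a target of protein kinase C, had 0.996 to 5.15 (median 4.20) normalized counts in young MSCs, 502 to 647 (median 560.4) in old MSCs and 358 to 489 (median 439.6) in rejuvenated old MSCs. The 3 groups did not overlap (log2 fold change -7.00, standard error 0.19, adjusted p = 5.26e-20). Coro1a, an actin regulator of leukocytes, had 3.98 to 13.2 (median 7.64) normalized counts in young MSCs, 268 to 364 (median 295) in old MSCs and 267 to 382 (median 327) in rejuvenated old MSCs. Old and rejuvenated old MSCs overlapped, well above young MSCs (log2 fold change -5.19, standard error 0.17, adjusted p = 3.61e-18). The adaptor Lcp2 (SLP-76) had 0 reads in young MSCs and Was, the Wiskott-Aldrich protein, had 1, whereas Vav1, an exchange factor for Rac, had 9. In old MSCs these 3 genes had 55.8 to 63.6, 52.8 to 65.0 and 123 to 159 normalized counts.

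Aif1, which encodes the calcium-binding protein IBA1 often used to stain macrophages and microglia, was the member that was higher in young MSCs. It had 18.9 to 26.8 (median 23.6) normalized counts in young MSCs, 7.88 to 25.97 (median 13.9) in old MSCs and 13.04 to 21.2 (median 19.4) in rejuvenated old MSCs. The ranges of young and old MSCs overlapped (log2 fold change 0.70, standard error 0.24, adjusted p = 0.00943, young against old MSCs). It was not called between young and rejuvenated old MSCs (adjusted p = 0.171).

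Complement C1q and lysozyme carried most of the myeloid signal of old MSCs. Lyz2 (gene number 17105, chromosome 10 from 117277541 to 117282272), the lysozyme of macrophages and neutrophils, had 153 to 187 (median 178) normalized counts in young MSCs, 8849.5 to 11494 (median 10221) in old MSCs and 8766 to 11135 (median 9412) in rejuvenated old MSCs. Young libraries were far below the others but clearly above 0 (log2 fold change -5.87, standard error 0.07, adjusted p = 3.18e-26). C1qc, C1qa and C1qb encode the chains of C1q, the recognition protein of the classical complement pathway, which macrophages secrete, and they are neighbours on chromosome 4. C1qc (gene number 12262, chromosome 4 from 136889801 to 136892936) had 0 to 3.09 (median 0) normalized counts in young MSCs, 1590.2 to 1912 (median 1627) in old MSCs and 1577 to 1934 (median 1789) in rejuvenated old MSCs. C1qa (gene number 12259, chromosome 4 from 136895916 to 136898844) had 0 to 1.03 (median 0) normalized counts in young MSCs, 1066 to 1342 (median 1229.97) in old MSCs and 1096 to 1395 (median 1286) in rejuvenated old MSCs. C1qb (gene number 12260, chromosome 4 from 136880126 to 136886200) had 303 to 442 normalized counts in old and 320.3 to 405 in rejuvenated old MSCs. The young libraries were empty but for young replicate 6, which held 3 reads of C1qc, 1 of C1qa and 1 of C1qb. All young reads of H2-Eb1, Cd52 and Ms4a7 were in that library too. It had reads of 33 members, against 26 to 28 in the other young libraries, and the reason was not tested. The young C1q levels thus rest on 1 library, and the intervals below cover counting error only. Old MSCs were 3255-fold (1114 to 15785) higher for C1qc, 7086-fold (1272 to 279885) for C1qa and 2007-fold (360.3 to 79282) for C1qb, where the intervals are wide because so few young reads were counted.

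Divided by transcript length, the most abundant member in old MSCs was Lyz2, with a level of 7716 normalized counts per kilobase, followed by C1qc (1393), C1qa (1169), Tyrobp (1161), Fcer1g (1086), Cd68 (999) and Trem2 (759.5). In young MSCs the order of these levels was another, led by Cd68 (354), Cd14 (146), Lyz2 (131) and Tlr2 (82.97). Ratios between members were also computed and were not tested. Summed over the libraries of a group, the ratio of Lyz2 to C1qa was 1007 in young MSCs, resting on 1 read of C1qa, but 8.35 in old and 7.80 in rejuvenated old MSCs. The ratio of Lyz2 to Cd68 was 0.397 in young MSCs, 8.26 in old MSCs and 9.94 in rejuvenated old MSCs.

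The listed members of antigen presentation by MHC class II had at most 99.5 normalized counts in any library. Cd74, the invariant chain, had 44.8 to 64.2 (median 54.7) normalized counts in young MSCs, 74.5 to 95.3 (median 85.02) in old MSCs and 66.03 to 99.5 (median 90.02) in rejuvenated old MSCs. The young libraries lay below the old ones, by a narrow gap (log2 fold change -0.65, standard error 0.13, adjusted p = 5.41e-05). H2-Eb1, the beta chain of I-E, had 0 to 6.18 (median 0) normalized counts in young MSCs, 70.02 to 80.3 (median 78.5) in old MSCs and 64.1 to 97.5 (median 79.3) in rejuvenated old MSCs. Here 6 young reads were counted, all in young replicate 6 (log2 fold change -5.80, standard error 0.35, adjusted p = 3.49e-13). H2-Ab1, the beta chain of I-A, had 0 to 3.35 (median 1.05) normalized counts in young MSCs, 15.5 to 25.8 (median 17.2) in old MSCs and 7.21 to 32.3 (median 11.3) in rejuvenated old MSCs. The old libraries lay above the young ones (log2 fold change -3.30, standard error 0.38, adjusted p = 2.62e-08). Ciita, the activator of these genes, had 2.06 to 12.3 in young MSCs, 6.73 to 19.1 in old MSCs and 5.59 to 15.1 in rejuvenated old MSCs, with overlap of all groups. It was called lower in young than in old MSCs (adjusted p = 0.0255) but lost the call in limma fits without young replicate 6 (adjusted p = 0.0847), old replicate 2 (0.0547) or old replicate 4 (0.0640), and it was not called between young and rejuvenated old MSCs (adjusted p = 0.118). H2-Aa, the alpha chain that pairs with H2-Ab1, was listed at 0 in all old libraries and had at most 2.18 normalized counts in any library. I-A needs both chains. H2-DMb1, a chain of the peptide exchanger of class II that is not a member, had 3.67 ± 1.82 (SD, n = 6) normalized counts in young and 771 ± 39.2 (SD, n = 6) in old MSCs. H2-DMa, the other chain and also not a member, went the other way. It had 370 ± 27.8 (SD, n = 6) in young and 229 ± 20.3 (SD, n = 6) in old MSCs (limma, log2 fold change 0.69, adjusted p = 1.57e-09).

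The 3 members that are subunits of the phagocyte NADPH oxidase, which makes superoxide in phagosomes, were lower in young MSCs. Ncf1, or p47phox, had 6.39 to 16.5 (median 11.5) normalized counts in young MSCs, 262 to 325 (median 308) in old MSCs and 281 to 342 (median 306) in rejuvenated old MSCs. Cybb, the catalytic gp91phox, had 0 to 1.12 (median 0.506) normalized counts in young MSCs, 167 to 190.03 (median 174) in old MSCs and 149 to 175 (median 158) in rejuvenated old MSCs. Ncf4, or p40phox, had 0 normalized counts in every young library, 97.2 to 127 (median 105) in old and 93.2 to 137 (median 113) in rejuvenated old MSCs. For each of these 3 genes old and rejuvenated old MSCs overlapped and young MSCs lay below both. Old MSCs were 26.7-fold (20.9 to 34.5) higher for Ncf1, 336-fold (115 to 1628) for Cybb and at least 203-fold for Ncf4. Cyba, or p22phox, the membrane partner of gp91phox and not a member, was higher in young MSCs, at 1877 ± 148 (SD, n = 6) against 715 ± 69.8 (SD, n = 6) in old MSCs (log2 fold change 1.39, adjusted p = 4.77e-15).

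The 5 members under a mean of 10 held some information. Clec7a, the beta-glucan receptor Dectin-1, had 0 reads in young MSCs, 8.86 to 13.98 normalized counts in old and 9.31 to 11.4 in rejuvenated old MSCs. Cx3cr1, the fractalkine receptor, had 13.6 to 21.5 in old MSCs and 4.76 to 16.04 in rejuvenated old MSCs. When all genes with a read were tested, its log2 fold change in rejuvenated old against old MSCs was -1.21 (limma, adjusted p = 0.00473). Cd163, the haemoglobin scavenger receptor, had 3.23 to 8.18 and 1.86 to 4.76, with a change of -0.85 (adjusted p = 0.0202) in the same fit. Ccr2, the receptor that draws monocytes from marrow to tissue, had at most 2.85 in any library, which is near the floor.

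Few members passed the test between rejuvenated old and old MSCs. In rejuvenated old against old MSCs, 2 of the 41 members were called lower, 0 were called higher and 39 were not called, with a median log2 fold change of -0.04. Among all genes tested in this comparison 41.6% were called, 21% higher and 20.6% lower, and the median was 0.01. The 6 rejuvenated old libraries lay below the 6 old libraries in 3 members (Cd68, Trem2 and Plek) and above them in 1 (Fcgr2b), against 11.6% and 10.4% of all genes, or 22% without overlap in either direction. At an unadjusted p under 0.05 there were 5 members. This fit took the spread from all 3 groups, and the young libraries, near 0 for most members, had a median SD of 0.43 on the log2 scale over the members, against 0.13 in old and 0.15 in rejuvenated old MSCs. With old and rejuvenated old MSCs fitted alone, limma called 11 members, 4 higher and 7 lower, and 40.7% of all genes, 20.5% higher and 20.2% lower. On the recovered reads edgeR called 10, 3 higher and 7 lower (43.3% of all genes, 21.8% higher and 21.5% lower), and DESeq2 11, 4 higher and 7 lower (44.2%, 21.8% higher and 22.4% lower), and 10 members were called by all 3 of these tests.

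**Figure D3:**
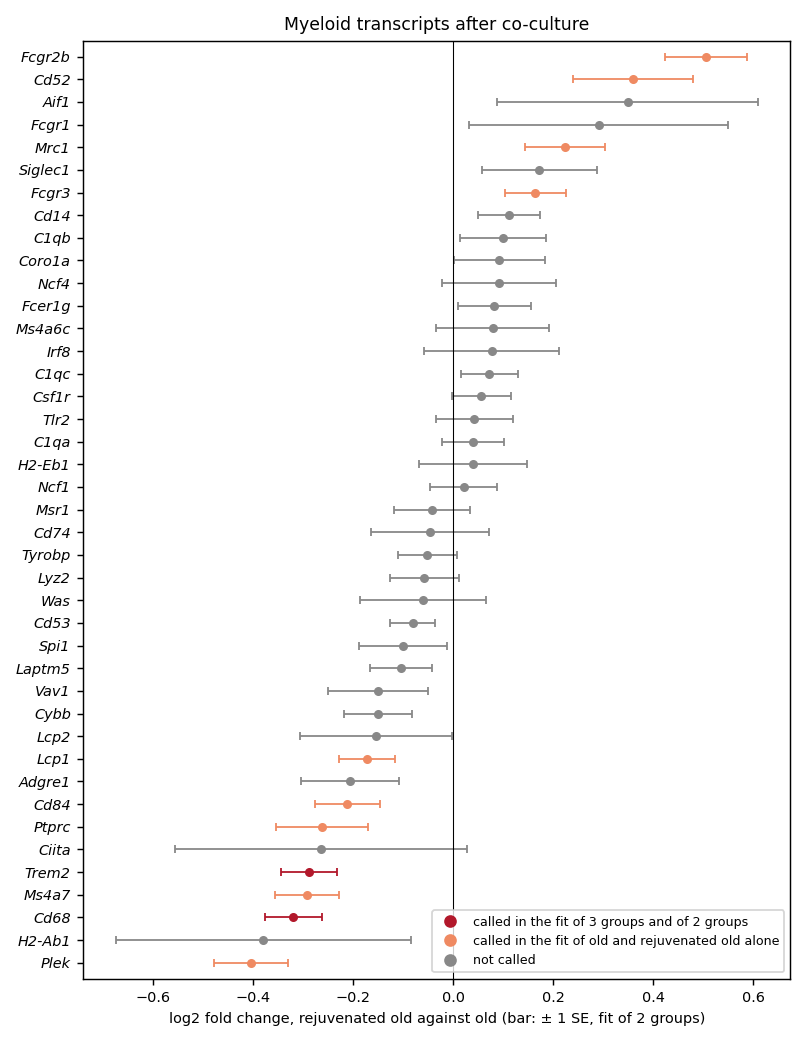
Log2 fold change of each member in rejuvenated old against old MSCs, with 1 standard error to each side from limma on these groups alone. Cd68 and Trem2 were called also in the fit of 3 groups, 9 more in the fit of 2 groups only, and the other 30 in neither.

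Cd68 and Trem2 were called lower under both fits. Cd68 fell from 1229 ± 112 (SD, n = 6) to 983 ± 51.8 (SD, n = 6) (log2 fold change -0.32, standard error 0.06, adjusted p = 0.000102), a quantity still above the 435 ± 28.3 (SD, n = 6) of young MSCs. Trem2 fell from 826 ± 31.7 (SD, n = 6) to 678 ± 58.9 (SD, n = 6) (log2 fold change -0.29, standard error 0.09, adjusted p = 0.0163). Young MSCs had 13.2 ± 2.47 (SD, n = 6). 

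Of the members called only when the 2 groups were fitted alone, Fcgr2b had the largest rise. It went from 295 ± 37.4 (SD, n = 6) to 417 ± 31.95 (SD, n = 6), with every rejuvenated old library above every old one, a change of 0.51 (standard error 0.08, adjusted p = 0.000111). Its adjusted p with all 3 groups was 0.161. The activating receptor Fcgr3 changed by 0.16 (standard error 0.06, adjusted p = 0.0396) and was not called by edgeR (adjusted p = 0.0517). Cd52 changed by 0.36 (standard error 0.12, adjusted p = 0.0232) and Mrc1 by 0.22 (standard error 0.08, adjusted p = 0.0344), both with overlap of the groups. 

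Lower levels in that fit were found for Plek, Ms4a7, Ptprc, Cd84 and Lcp1. Plek went from 569 ± 49.8 (SD, n = 6) to 431 ± 46.4 (SD, n = 6), without overlap, a change of -0.40 (standard error 0.07, adjusted p = 0.000349). Ms4a7 changed by -0.29 (standard error 0.06, adjusted p = 0.00143), with 386 to 498 normalized counts in rejuvenated old against 488 to 555 in old MSCs. The changes were -0.26 (standard error 0.09, adjusted p = 0.0301) for Ptprc, -0.21 (standard error 0.06, adjusted p = 0.0143) for Cd84 and -0.17 (standard error 0.06, adjusted p = 0.0206) for Lcp1, each with overlapping libraries. With all 3 groups the adjusted p values of these 5 genes were 0.0868 for Plek, 0.119 for Ms4a7, 0.0999 for Ptprc, 0.468 for Cd84 and 0.0744 for Lcp1.

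Other members, among them the most abundant, did not pass the test after co-culture in either fit. Lyz2 had a log2 fold change of -0.06 (standard error 0.07, adjusted p = 0.538), Csf1r of 0.06 (standard error 0.06, adjusted p = 0.472) and Tyrobp of -0.05 (standard error 0.06, adjusted p = 0.517) with the 2 groups alone. The C1q chains had log2 fold changes of 0.04 (standard error 0.06, adjusted p = 0.639) for C1qa, 0.10 (standard error 0.09, adjusted p = 0.378) for C1qb and 0.07 (standard error 0.06, adjusted p = 0.339) for C1qc. Adgre1 had -0.21 (standard error 0.10, adjusted p = 0.106) and Spi1 -0.10 (standard error 0.09, adjusted p = 0.391). The sum of all members tested was 0.969 of the old level. Scaled to the summed members of each library, a choice made after seeing the data, 3 members were higher (Cd52, Fcgr2b and Mrc1) and 4 lower (Cd68, Ms4a7, Plek and Trem2) in rejuvenated old MSCs, and 28.1% of all genes were called, 17.7% higher and 10.4% lower.

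Young and rejuvenated old MSCs differed as widely as young and old MSCs did. Of the 41 members, 39 were lower in young than in rejuvenated old MSCs, 0 were higher and 2 (Aif1 and Ciita) were not called, while 85.6% of all genes were called in this comparison, 44.1% lower and 41.5% higher. In 39 members the young libraries all lay below the rejuvenated old ones, as in 36.5% of all genes, and in 0 above them, against 34% (70.5% in either direction). These comparisons share their libraries with those above, and their values stand side by side only.

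Variation between libraries of a group was moderate. Among members with a group mean of at least 100, the median coefficient of variation was 8.28% over 31 members in old and 9.11% over 32 in rejuvenated old MSCs, against 5.21% and 6.79% over all genes of that level. In young MSCs, where 5 members had that level, it was 10.5%, against 5.21%. The genes outside the list whose libraries deviated from their group means most like the summed members, over the 18 libraries, were Aldh2 (r = 0.866), Rap2b (0.831), Mrm2 (0.824), Mpzl1 (0.807), Msh6 (0.790), Raet1d (0.789), Wdr17 (0.776), Fcrls (0.776), Aplp2 (0.771) and Fmnl1 (0.767). They were picked as the highest among all genes and share library and depth with the members, so the values are a description. Of these 10, Fcrls, an Fc receptor-like gene, had 0 reads in young MSCs, with 186 ± 22.2 normalized counts in old MSCs and 209 ± 30.1 after co-culture (SD, n = 6 each). Mrm2, Raet1d, Wdr17 and Fmnl1 were called higher in young than in old MSCs. Aldh2, Rap2b, Mpzl1, Msh6 and Aplp2 were called lower, as Fcrls was.

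Other myeloid genes were lower in young MSCs in most cases and higher in some. Of 149 further macrophage and myeloid genes in the table, 111 were tested, and 89 were lower, 20 higher and 2 not called in young against old MSCs, with a median log2 fold change of -4.62. Of all genes tested 44.1% were lower and 41.6% higher in that comparison, with a median of -0.02. The sum of the list was 58085 to 61703 in young MSCs, 67705 to 70379 in old MSCs and 68525 to 75383 in rejuvenated old MSCs, a much smaller difference than that of the summed members. Of the 3 most abundant, Lgals3 (galectin-3) had 12718 ± 549 in young and 5344 ± 217 in old MSCs (SD, n = 6 each), and Gpnmb, a glycoprotein of lysosomes, had 16696 ± 312 and 2719 ± 227. Both were higher in young MSCs. Emb, an adhesion protein, had 1847 ± 94.5 in young and 9256 ± 358 in old MSCs and was lower in young MSCs. In rejuvenated old against old MSCs 15 of the 111 were higher, 15 lower and 81 not called, with a median of -0.01, while 21% of all genes were higher and 20.6% lower. With the 2 groups fitted alone 21 were higher and 23 lower, against 20.5% and 20.2% of all genes.

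Among these, 75 genes had at least 10 times the young level in old MSCs. After co-culture 6 of the 75 were higher and 5 lower, against 21% and 20.6% of all genes. With the 2 groups fitted alone 13 were higher and 15 lower, against 20.5% and 20.2% of all genes. The median of the 75 was -0.04, and they were picked on old values that this comparison also uses. The 4 that rose most and the 4 that fell most, a rule made after the values were seen, changed more than any of the 41 members. Cd83, a surface protein of activated dendritic cells and macrophages, rose from 30.4 ± 6.71 (SD, n = 6) to 83.8 ± 21.04 (SD, n = 6) (log2 fold change 1.42, adjusted p = 4.60e-06). Pf4, a chemokine of platelets and macrophages, rose from 103 ± 5.11 (SD, n = 6) to 232 ± 39.7 (SD, n = 6) (1.15, adjusted p = 3.35e-07). Clec4e, the receptor Mincle, rose from 48.6 ± 4.40 (SD, n = 6) to 88.01 ± 16.9 (SD, n = 6) (0.82, adjusted p = 0.000357). The chemokine Ccl6 had 352 to 395 in old and 547 to 777 in rejuvenated old MSCs, with an adjusted p of 1.26e-07 with the 2 groups alone and 0.0707 with all 3. None of these 4 genes had overlapping old and rejuvenated old libraries.

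Lower after co-culture were Alox5, Cd5l, Fyb and Cd180. Alox5, which starts leukotriene synthesis, fell from 191 ± 15.2 (SD, n = 6) to 89.4 ± 10.1 (SD, n = 6) (log2 fold change -1.09, adjusted p = 2.33e-05). Cd5l, a secreted protein of tissue macrophages, fell from 65.9 ± 6.64 (SD, n = 6) to 32.9 ± 9.73 (SD, n = 6) (-1.03, adjusted p = 0.00117). Fyb, an adaptor that binds SLP-76, fell from 414 ± 24.3 (SD, n = 6) to 265 ± 25.3 (SD, n = 6) (-0.64, adjusted p = 0.000423). Cd180, a relative of the Toll-like receptors, fell from 107 ± 13.4 (SD, n = 6) to 69.6 ± 13.6 (SD, n = 6) (-0.63, adjusted p = 0.00309). Old and rejuvenated old libraries overlapped in Cd180 and in none of the other 3.

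**Figure D4:**
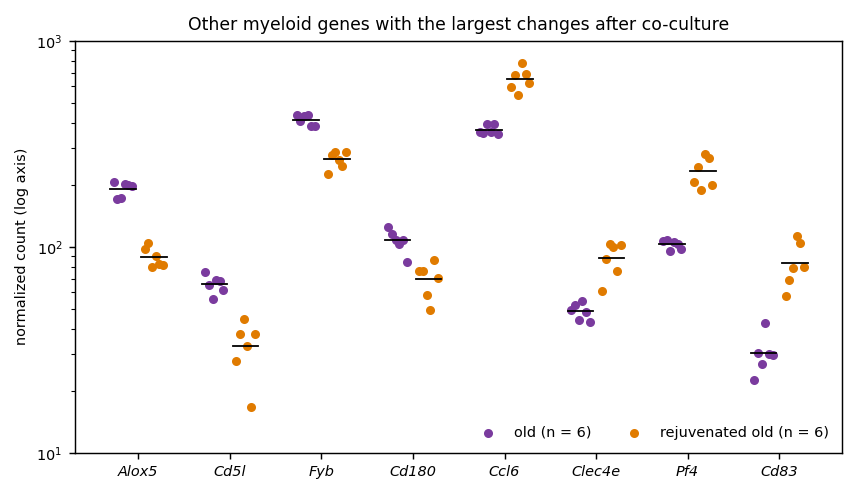
Normalized counts (log axis) of the 8 myeloid genes outside the 41 members with the largest falls and rises after co-culture, 1 point per library and the mean as a black line. Old and rejuvenated old libraries overlap in Cd180 only.

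Markers of other cells were examined beside these values, and their counts stand against 44.1% of all genes lower and 41.6% higher in young than in old MSCs, and 20.6% lower and 21% higher after co-culture. All 32 stromal markers were tested, and their sum was 808683 to 850437 normalized counts in young MSCs, 1225501 to 1270459 in old MSCs and 1138102 to 1222675 in rejuvenated old MSCs, far above the members in every group. Of the 32, 20 were lower and 12 higher in young than in old MSCs, and 13 were lower and 8 higher after co-culture. Fibronectin (Fn1) had 218867 ± 7089 in young and 163951 ± 5535 in old MSCs, and the collagen gene Col1a2 had 171857 ± 5042 and 104079 ± 2525. The chemokine Cxcl12 had 9227 ± 166 in young MSCs, 197374 ± 7680.4 in old MSCs and 238458 ± 20791 in rejuvenated old MSCs (SD, n = 6 each). Their part in the myeloid differences was not tested.

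Osteoclasts, which arise from the same lineage and resorb bone, were represented by 17 markers, of which 12 were tested. In young against old MSCs 5 were higher, 6 lower and 1 not called, and in rejuvenated old against old MSCs 5 were lower and 7 not called, where 85.7% and 41.6% of all genes were called. Ctsk (cathepsin K) had 110.2 to 152 in young and 4269 to 4552 in old MSCs, Tcirg1 3011 to 3576 and 3742 to 5167, and Clcn7 2743 to 2950.2 and 3700.3 to 4327. The sum of the list was 9964 to 10629 in young MSCs, 17019.6 to 18019 in old MSCs and 14885 to 15724 in rejuvenated old MSCs. Genes chosen after their values were seen, from those tied to mature osteoclasts, were not uniformly low. Dcstamp, Calcr and Siglec15 had at most 2.01 normalized counts in any library and Ocstamp 6.18. Acp5, which encodes TRAP, had 0 to 1.00 in old and 1.09 to 15.99 in young MSCs. Others were higher, with Atp6v0d2 at 50.3 to 63.7 in young and 39.9 to 57.2 in old MSCs. Mmp9 had 203 to 293 in young and 21.5 to 42.0 in old MSCs, and Oscar 20.6 to 33.7 and 7.27 to 23.1. Tnfrsf11a, or RANK, had 0 to 3.26 in young and 21.7 to 42.3 in old MSCs.

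Markers of lymphoid cells were mostly scarce. Of 30 markers of T, B and NK cells, 6 were tested, 5 lower and 1 higher in young than in old MSCs, and 2 higher and 1 lower after co-culture. The sum of the list (1192 to 1392 in young MSCs, 10704 to 12285 in old MSCs and 8858 to 11216 in rejuvenated old MSCs) was mostly Sdc1, a syndecan that stromal cells also make, with 10513 to 12118 in old MSCs. Trac had 39.99 to 77.6 and Cd28 30.1 to 61.4 in old MSCs. Cd3g and Ncr1 were listed at 0 in all 18 libraries.

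Of 24 neutrophil and mast cell markers, 4 were tested, 2 lower and 2 higher in young MSCs, and 1 each way after co-culture. Mcpt8, a protease of basophils, had 0 to 7.82 in young MSCs, 283 to 338 in old MSCs and 416 to 549.9 in rejuvenated old MSCs, Camp 206 to 245 in old and 115 to 169 in rejuvenated old MSCs, and Prtn3 56.7 to 101 in young and 26.6 to 45.4 in old MSCs. Mpo, Retnlg, Tpsb2 and Fcer1a were at 0 in all libraries. The sum was 171 to 222 in young MSCs, 565 to 634 in old MSCs and 642 to 785 in rejuvenated old MSCs. Of 17 erythroid and megakaryocyte markers 5 were tested, 2 lower, 1 higher and 2 not called in young MSCs, and 1 was lower after co-culture. Itga2b had 808 to 1038 in young and 253 to 339 in old MSCs, Epor 2.13 to 17.2 and 702 to 830.2, and Gp1ba 22.3 to 35.01 and 18.3 to 40.9, while Hbb-bs, Hba-a1 and Gp6 were at 0. The sum of that list was 885 to 1105 in young MSCs, 1050.3 to 1227 in old MSCs and 911 to 1056 in rejuvenated old MSCs. Of 20 endothelial markers 9 were tested, 6 higher and 2 lower in young MSCs, and 2 lower after co-culture. Egfl7 had 119 to 147 in young and 170.3 to 202 in old MSCs, Vwf 42.8 to 73.5 and 104 to 147, and Stab2 96.1 to 150.2 and 31.2 to 57.2. Their sum was 664 to 805 in young MSCs, 420.1 to 468 in old MSCs and 408 to 461 in rejuvenated old MSCs. The part of these cells in the values of the members was not tested.

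The ligands of the myeloid receptors were measured in the same cultures. Csf1, the growth factor that Csf1r needs, had 6899.8 to 8334 normalized counts in young MSCs, 41899 to 44897 in old MSCs and 44346 to 49357 in rejuvenated old MSCs. It was lower in young than in old MSCs (log2 fold change -2.49, adjusted p = 4.43e-24) and rose after co-culture by 0.11 on the log2 scale (adjusted p = 0.0328). Il34, the other ligand of Csf1r, had 222 to 286 in young MSCs, 414 to 509 in old MSCs and 494 to 685 in rejuvenated old MSCs and rose by 0.34 after co-culture (adjusted p = 0.00167). The monocyte chemokine Ccl2 rose by 0.34 as well (adjusted p = 9.98e-05), from 1135 ± 91.5 to 1439 ± 96.4 (SD, n = 6), and Cx3cl1, the ligand of Cx3cr1, fell by 0.15 (adjusted p = 0.0043). Of the 25 ligands tested, 16 were lower, 8 higher and 1 not called in young against old MSCs, and 12 were higher and 3 lower in rejuvenated old against old MSCs, where 85.7% and 41.6% of all genes were called. The most abundant were Cxcl12, Thbs1 (thrombospondin-1, a ligand of CD36 and CD47), with 109830.5 ± 4172 in old MSCs, and Anxa1 (annexin A1), with 52763 ± 2416. The sum of the ligands was 141482 to 151956 in young MSCs, 458776 to 480129 in old MSCs and 497349.5 to 566034 in rejuvenated old MSCs.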

How the data were processed

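RNA was sequenced from 18 libraries of a stranded mRNA kit, 6 per group. Per the labels and the paper's methods, the authors used HISAT2 for alignment to mm10, StringTie and featureCounts for counting and DESeq2 for normalization. The deposited unit is a signal, each gene's reads divided by 1 size factor per library. Tool versions, gene annotation, strand setting and filters are not given in the sources used here. Reads were recovered for 100% of values (largest departure 5.55e-05 read). Of the identifiers, 25275 matched RefSeq GRCm38.p6, whose positions and promoters were used, and 958 genes had no name and 26 a date in its place.

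Values were tested as log2(value + 1), which understates changes of low genes, with limma 3.58.1 (R 4.3.3), a prior variance that follows the mean and all 3 groups in one fit, over 14353 genes with a mean of at least 10. The Benjamini-Hochberg adjusted p was called under 0.05, two-sided. Where the young group had 0 reads, folds were set against a floor of 3 reads over the group, and other ratios have exact Poisson 95% intervals for counting error only. Lengths are those of the longest annotated transcript. Alternatives used edgeR 4.0.16 and DESeq2 1.42.0 on the recovered reads, other pseudocounts (0.5 and 10), filters (none, and a mean of at least 50) and scalings, 2 groups alone, the replicate block and 18 fits that each left out 1 library. Python 3.11.15 was used for the rest. The fit was tested on simulated data. These took the level of each gene from old MSCs, with a floor of 10, so groups near 0 reads were not covered. All pairs of replicates differed by more than sampling noise (chi-square per degree of freedom 2.605 to 23.68). The members and lists were chosen with earlier results of these data known. All members with a mean of at least 10 are reported, up to 3 per role in full, with the 3 most abundant tested genes of each other list and 4 chosen ligands. Other genes were named after their values were seen. The functional assays of the study were not analysed here.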

Additional observations from a re-analysis of the deposited data

Results flagged for a closer look

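Single libraries stood apart from the other 5 of their group in 5 of 98 groups of values examined, where chance gives about 1 in 20, by a gap that took most of the group's range. Old replicate 4 was the highest old library for C1qb, with 442 normalized counts against 303 to 341, for C1qc, with 1912 against 1590.2 to 1676, and for Ncf4, with 127 against 97.2 to 106. Old replicate 2 was the lowest old library for Ms4a7, with 488 against 533 to 555. Young replicate 6 was the lowest young library for Cd14, with 192 against 238 to 264.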

How the results depend on the processing

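The call of 41 members between young and old MSCs was 40 to 41 without each library in turn, and that of 39 between young and rejuvenated old MSCs stayed at 39. The 2 members called between rejuvenated old and old MSCs became 9 with a pseudocount of 10, 4 with no filter on low values (Cx3cr1 and Cd163 were then also tested), 10 with edgeR, 11 with DESeq2, 11 with the 2 groups alone and 7 relative to the summed members, the last chosen after seeing the data. Leaving out 1 library gave 2 to 4, with 4 without young replicate 6 (Ms4a7 and Cd52 added). The summed level of old over young MSCs, 17.7, was 12.3 without Lyz2 and 15.1 without Lyz2, C1qc and Cd68, and 17.3 to 18.005 without each library. The same number did not pair the libraries, since same-numbered libraries had correlations of -0.152 to 0.0736 in their deviations, and 1 of 18 correlated best with its own number. With the replicate block, 41, 2 and 39 members were called. Small changes between rejuvenated old and old MSCs that were not called turned direction. Relative to the summed members, Msr1 was at 0.00555 and Cd74 at 0.00129. Without single libraries the log2 fold change ran from -0.0964 to 0.0204 for Cd74, -0.0215 to 0.0979 for H2-Eb1, -0.0199 to 0.0462 for Ncf1, -0.00466 to 0.0868 for Tlr2 and -0.121 to 0.0321 for Was. The cause of these changes was not tested. Genes near 0 in young MSCs rest on a few reads, so their folds are bounds or wide intervals.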
